A study of Mus musculus with 4 samples.

Results

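Semaphorins, plexins and neuropilins were described in single cells of the mouse telencephalic midline. The members were chosen by symbol: every gene whose name starts with Sema or Plxn, plus Nrp1 and Nrp2. This gave 31 of the 21937 features in the deposited matrices, namely 20 semaphorins, 9 plexins and 2 neuropilins, all protein-coding genes in GENCODE M21. Tissue around the cortical hem, a source of Wnt and BMP signals at the cortical margin, was dissected from both hemispheres of male embryos at E14.5 and at E11.5 and sequenced as droplet single-cell libraries. Each age and genotype gave 1 library, 4 in all. The gof embryos were Lmx1aCre::Ai9::b-cat gof and the control embryos were Lmx1aCre::Ai9, so both carried the Cre driver and the Ai9 tdTomato reporter. Lmx1aCre acts in the hem and its offspring, and the gof allele concerns beta-catenin, which carries canonical Wnt signals. Which stretch of beta-catenin is altered is not stated in the labels. The numbers of dissected embryos given were 3 for the E14.5 libraries and 5 for the E11.5 libraries. Whether they are per library or per age is not stated, and the embryos cannot be told apart within a library.

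Semaphorins are guidance cues that carry a sema domain, and plexins are their receptors. Class 3 semaphorins are secreted and mostly act through a neuropilin, which binds the ligand, and a plexin, which signals into the cell; the other vertebrate classes are bound to the membrane and bind plexins directly. In the developing forebrain these proteins steer axons and migrating neurons and pattern blood vessels.

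After filtering, the E14.5 libraries held 5258 gof and 6577 control cells, with medians of 14010 and 12850 UMIs per cell, and the E11.5 libraries held 6991 gof and 6503 control cells, with medians of 5643 and 8172 UMIs. Cells with 2 or more tdTomato UMIs, called tdTomato-positive here, made up 19.5% of gof and 16.8% of control cells at E14.5 and 4.19% of gof and 8.52% of control cells at E11.5. Levels are summed UMI counts scaled to the total of the cells summed (CPM), and intervals are exact 95% Poisson or binomial intervals that cover counting error only. Each UMI counts 1 molecule from its 3' end, so CPM are not scaled by gene length. Each group was 1 library, so no difference below has a replicate check and none was tested. A member is called higher or lower where it differed by at least 1.5-fold after adding 1 CPM and reached 10 CPM in either group. All 10 hem markers were detected in each library, and pairs of libraries shared 7 to 13 kept cell barcodes.

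The family was more abundant at E14.5 than at E11.5. The cell make-up differed too: the 9 projection neuron markers, none at 0, summed to 3165 CPM at E14.5 and 649 CPM at E11.5 in gof and to 3299 and 773 CPM in control, and projection neuron-like cells, the class gated on them, made up 18.2% of E14.5 and 0.4% of E11.5 cells in gof and 15.0% and 0.523% in control. Their part in the age differences was not tested. In the control libraries, all 20 members tested were higher at E14.5, where 59.7% of all genes tested were past the limit, 51.9% higher and 7.79% lower, and the median log2 ratio was 1.59 for the members and 0.62 for all genes tested. In the gof libraries, 16 of 21 members tested were higher and 1 was lower, against 59.5% past the limit, 50.7% higher and 8.78% lower among all genes tested. Scaling by the median of ratios in place of total counts moved these log2 ratios by 0.12 in control and 0.25 in gof, and left 10 higher and 1 lower in gof. The counts of higher members lean on the 10 CPM filter, which a member could pass through its higher age alone. In control, 20 members reached 10 CPM at E14.5 and 9 at E11.5, and in gof 20 and 14 did so. All genes tested passed the same filter. Plxna2, a receptor of class 3 and class 6 semaphorins, was read at 200.1 CPM at E14.5 and 7.52 CPM at E11.5 in gof, and at 179 and 7.25 CPM in control. Plxna4, a plexin with the same kinds of ligand, was at 139 CPM at E14.5 and 13.0 CPM at E11.5 in gof, and at 136 and 9.53 CPM in control. For both receptors the ages stood far apart and the genotypes lay close together. Summed over the 20 semaphorins, E14.5 libraries held 547 CPM in gof against 603 CPM in control, against 228 and 227 CPM at E11.5. Summed over the 9 plexins, the values were 449 CPM in gof against 469 CPM in control at E14.5, against 94.4 and 80.2 CPM at E11.5.

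In whole libraries, 22 members reached 10 CPM in at least 1 library and 9 did so in all 4. Sema3b, Sema3g and Plxnb3 stayed below 1 CPM in every library. The plot of levels by library shows each member with its counting interval.

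**Figure D1:**
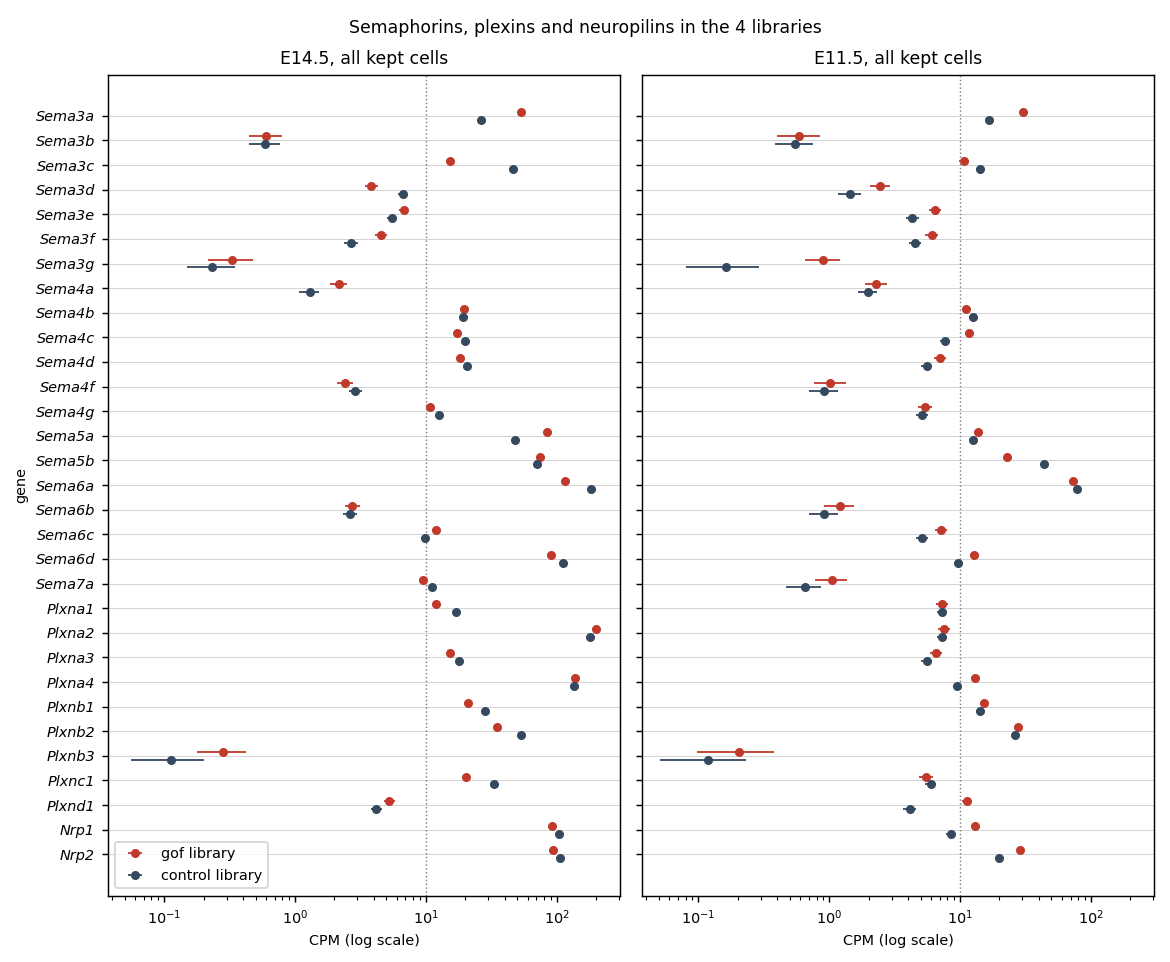
Level of each member in CPM (log scale) over all kept cells at E14.5 (left) and E11.5 (right), with the gof library in red, the control library in dark blue, bars for exact 95% counting intervals and a dotted line at 10 CPM. Most receptors lie further right at E14.5, and Sema3a and Sema3c are the class 3 members whose genotypes lie furthest apart at E14.5.

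Among tdTomato-positive cells at E14.5, 12 of the 20 members tested were past the limit in gof over control, 3 higher and 9 lower, where 23.6% of all genes tested were past it. Higher were Sema3a, Sema5a and Nrp2. Lower were Sema3c, Sema4g, Sema6a, Sema6d, Plxna1, Plxnb1, Plxnb2, Plxnc1 and Nrp1. The members' median log2 ratio was -0.51, and that of all genes tested was -0.12. Among cells with no tdTomato UMI at E14.5, 6 of 21 members were past the limit, against 9.46% of all genes: Sema3a and Sema5a were higher, and Sema3c, Sema6a, Plxnc1 and Nrp2 were lower. Over all kept E14.5 cells, 5 of 21 were past it, against 11.2% of all genes. At E11.5, 3 of 11 members tested were past the limit among tdTomato-positive cells, against 11.6% of all genes, and 3 of 14 over all kept cells, against 8.39%. Among E11.5 cells with no tdTomato UMI it was also 3 of 14, against 8.29%. Sums over whole libraries, tdTomato-positive cells or tdTomato-0 cells depend on how many cells of a type were captured. Fewer cells of a type and less RNA per cell cannot be told apart in them. Cajal-Retzius-like cells made up 3.02% of gof and 31.3% of control tdTomato-positive cells at E14.5. Other neuron-like cells made up 16.65% and 2.99% of them, and cells with no gate 13.05% and 1.90%.

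**Figure D2:**
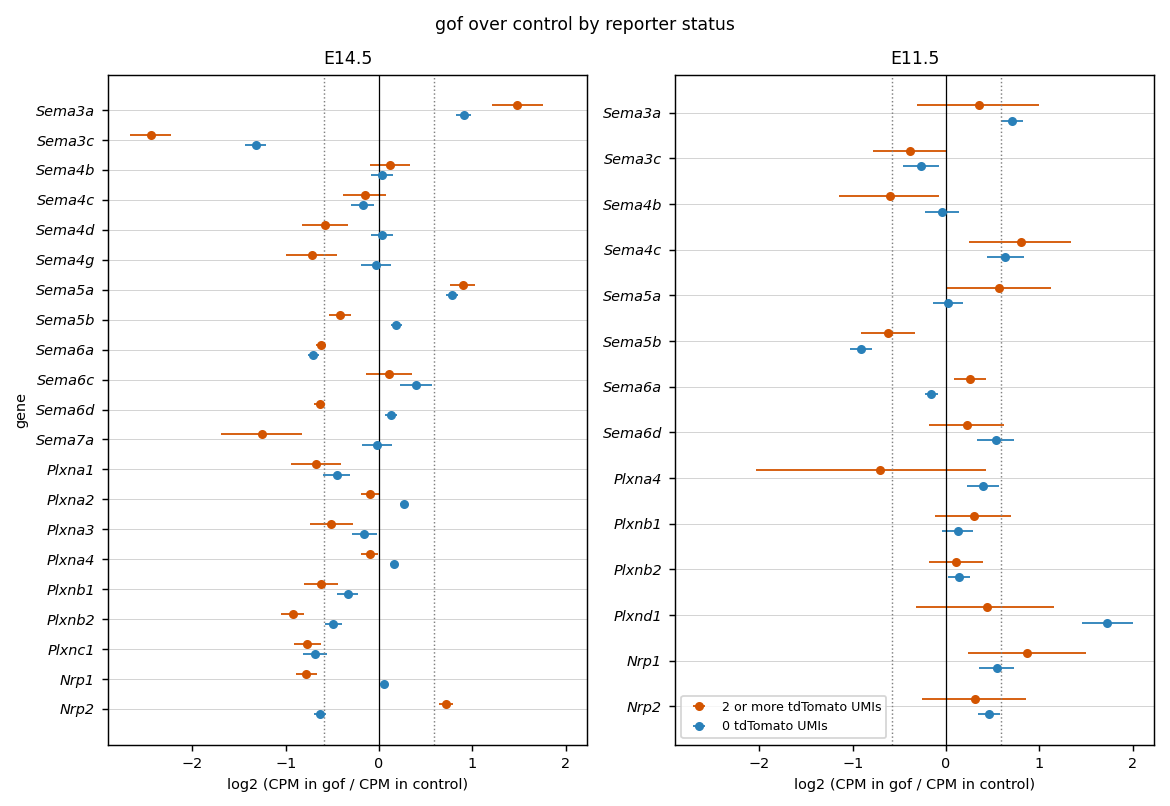
Ratio of gof to control (log2 of CPM, nothing added) for members of at least 10 CPM in either group, at E14.5 (left) and E11.5 (right), in cells with 2 or more tdTomato UMIs (orange) and with 0 (blue); bars are 95% counting intervals and dotted lines mark 1.5-fold. At E14.5 Nrp2 lies right of 0 in tdTomato-positive cells and left of 0 in cells with no tdTomato UMI, and Sema3c lies furthest left in both.

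Of the class 3 ligands, Sema3c differed most between the E14.5 libraries. Sema3c, which acts through Nrp1 and Nrp2 and is known for attracting callosal axons, lies on chromosome 5 from 17574281 to 17730268 (GRCm38, plus strand). It was read at 10.3 CPM in gof against 56.0 CPM in control tdTomato-positive cells, a log2 ratio of -2.34, and the ratio of the CPM had an interval of 0.157 to 0.213. Cells with no tdTomato UMI gave 16.7 CPM in gof against 41.8 CPM in control, a log2 ratio of -1.27. Control was the higher library in both sets of cells. At E11.5 the tdTomato-positive cells held 20.4 CPM in gof against 26.6 CPM in control, which was not past the limit. Within E14.5 classes, which were gated on marker genes and are named by their resemblance, Sema3c was at 43.5 CPM in gof against 163 CPM in control projection neuron-like cells and at 13.1 and 42.1 CPM in intermediate progenitor-like cells. The choroid plexus-like cells held 16.8 CPM in gof against 48.8 CPM in control, while hem-like cells held 8.93 and 12.7 CPM, not past the limit. Among the 137 gof and 215 control hem-like cells that were tdTomato-positive, Sema3c was lower in gof, past the limit. Among tdTomato-positive projection neuron-like cells, Sema3c was at 26.9 CPM in 108 gof cells and 211 CPM in 112 control cells.

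Sema3a, a repellent of cortical axons that acts through Nrp1 and plexin A receptors, was higher in gof in both reporter sets of E14.5 cells. It lies on chromosome 5 from 13125414 to 13602565 (plus strand). In E14.5 tdTomato-positive cells it was read at 21.4 CPM in gof against 7.65 CPM in control, with a log2 ratio of 1.37 and an interval of 2.32 to 3.39 for the ratio. Cells with no tdTomato UMI held 60.6 CPM in gof against 32.3 CPM in control. In both genotypes the tdTomato-0 cells held the higher level. By class, Sema3a was at 39.0 CPM in gof against 20.8 CPM in control intermediate progenitor-like cells, and at 29.0 and 15.4 CPM in projection neuron-like cells. Progenitor-like cells held 61.3 CPM in gof against 41.1 CPM in control, a difference below the limit. Choroid plexus-like cells held 4.11 CPM in gof against 4.58 CPM in control. The 9 mesenchymal or meningeal markers, none of them at 0, summed to 190 CPM in gof against 73.7 CPM in control over all E14.5 cells. Without the non-neural classes the E14.5 log2 ratio of Sema3a was 0.97 over all cells and 1.43 in tdTomato-positive cells. It was 0.84 and 1.05 when mixed cells, which pass a non-neural gate and a second gate, were left out as well. At E11.5, Sema3a was at 30.1 CPM in gof against 16.8 CPM in control over all kept cells. Its E11.5 level was highest in mesenchymal-like cells, at 161 CPM in gof against 195 CPM in control, and was at most 6.68 CPM in every other class. The same markers, again with none at 0, summed to 868 CPM in the E11.5 gof library and 361 CPM in control. Without the non-neural classes, Sema3a was at 6.89 CPM in gof against 4.75 CPM in control at E11.5, below the 10 CPM needed to be read against the limit, and with mixed cells left out as well it was at 5.18 and 2.99 CPM.

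The other class 3 ligands were low. Sema3d, Sema3e and Sema3f, which bind Nrp1, Plxnd1 and Nrp2, were between 1.44 and 6.81 CPM in every library. Sema3d was at 4.42 CPM in gof against 10.9 CPM in control E14.5 progenitor-like cells. Sema3e was at 13.5 CPM in gof against 6.25 CPM in control E14.5 intermediate progenitor-like cells, and at 2.46 and 10.5 CPM in choroid plexus-like cells. Sema3f was highest in E11.5 mesenchymal-like cells, at 17.4 CPM in gof against 18.6 CPM in control. Sema3g, below 1 CPM in whole libraries, reached 23.5 CPM in the E11.5 gof endothelial-like cells.

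Class 4 semaphorins are transmembrane ligands of the plexin B receptors. Sema4b was read at 19.5 CPM in gof against 19.4 CPM in control at E14.5, and at 11.2 and 12.6 CPM at E11.5. Sema4c, a ligand of Plxnb2, was higher in E11.5 gof tdTomato-positive cells, at 13.7 CPM against 7.87 CPM in control, with an interval of 1.19 to 2.54 for the ratio. Sema4g was lower in E14.5 gof tdTomato-positive cells, at 9.07 CPM against 14.9 CPM in control. Sema4d, a ligand of Plxnb1, was concentrated in projection neuron-like cells at E14.5, at 48.8 CPM in gof against 60.2 CPM in control. At E11.5, single cells gave many of the UMIs behind some of its class values. In gof mesenchymal-like cells 1 cell gave 40 of the 127 UMIs, a minority. In control intermediate progenitor-like cells 1 cell gave 26 of the 39 UMIs, the majority. Sema4a and Sema4f did not exceed 2.90 CPM in any library.

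Sema5a and Sema5b, transmembrane ligands with thrombospondin repeats that inhibit neurite growth in the retina, were, with Sema6a, the most abundant members in E14.5 progenitor-like cells. The genes leading this class differed between the libraries: histone genes such as H1f5 and H2ac8 in control, and Aldoc and Dct in gof. In E14.5 progenitor-like cells, Sema5a was the highest member in gof at 119 CPM, against 71.7 CPM in control, and was past the limit. Sema5b was at 111 CPM in gof against 98.7 CPM in control in the same cells, not past it. Sema6a was at 77.8 CPM in gof against 105 CPM in control there, and was the highest member in control. Over E14.5 tdTomato-positive cells, Sema5a was at 66.4 CPM in gof against 35.6 CPM in control, and cells with no tdTomato UMI held 89.6 and 51.9 CPM. Intermediate progenitor-like cells held 92.4 CPM of Sema5a in gof and 40.5 CPM in control. Sema5a was thus higher in gof in both reporter sets and in these classes, while choroid plexus-like cells gave 25.5 CPM in gof against 38.5 CPM in control. Sema5a lies on chromosome 15 from 32244810 to 32696341 and Sema5b on chromosome 16 from 35541145 to 35664732. At E11.5, Sema5b was lower in gof, at 22.9 CPM against 43.5 CPM in control over all kept cells and 34.4 against 52.8 CPM in tdTomato-positive cells. Without the non-neural classes the log2 ratio in tdTomato-positive cells was -0.57, which is not past the limit. It was also lower in E11.5 gof diencephalic-like cells, at 18.8 CPM against 42.5 CPM in control, and in other neuron-like cells, at 17.0 against 37.7 CPM. At E14.5, Sema5b was at 75.3 CPM in gof against 70.7 CPM in control over all kept cells. It was lower in gof hem-like cells, at 66.2 CPM against 112 CPM in control, and past the limit. The same held in choroid plexus-like cells, at 22.2 against 65.2 CPM. Intermediate progenitor-like cells held 70.8 CPM in gof and 59.0 CPM in control, and projection neuron-like cells 26.4 and 21.7 CPM, neither past the limit. In E11.5 gof choroid plexus-like cells, 24 of the 43 Sema5a UMIs came from 1 cell, and the level of 46.8 CPM was 20.9 CPM without it.

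Class 6 held the most abundant ligands. Sema6a, a transmembrane ligand of Plxna2 and Plxna4, was the highest member in every E11.5 neural class. It marked Cajal-Retzius-like cells most strongly, at 840 CPM in the 479 control cells of E14.5 and at 266 CPM in gof against 283 CPM in control at E11.5. The E14.5 gof library held 48 such cells, under the 50 set for reading a class. In E14.5 tdTomato-positive cells Sema6a was at 246 CPM in gof against 378 CPM in control, and cells with no tdTomato UMI held 73.9 and 120 CPM. Beside this, Cajal-Retzius-like cells made up 3.02% of gof and 31.3% of control tdTomato-positive cells, and the 10 Cajal-Retzius markers, none at 0, summed to 336 CPM in gof against 1781 CPM in control. Within classes, Sema6a was at 260 CPM in gof against 219 CPM in control hem-like cells and at 334 and 270 CPM in choroid plexus-like cells, neither past the limit. In intermediate progenitor-like cells it was lower in gof, at 96.3 CPM against 149 CPM in control. The part of the smaller Cajal-Retzius-like share in the tdTomato-positive difference was not tested.

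Sema6d, a transmembrane ligand of Plxna1, was the highest member of E14.5 choroid plexus-like cells, at 493 CPM in gof against 698 CPM in control. Projection neuron-like cells held 217 CPM in gof against 233 CPM in control, and progenitor-like cells 9.47 and 5.91 CPM. In E14.5 tdTomato-positive cells Sema6d was at 186 CPM in gof against 289 CPM in control. The 10 choroid plexus markers, none at 0, summed to 2996 CPM in gof against 14730 CPM in control in those cells. Ttr alone gave 2613 and 13580 CPM of these sums. Choroid plexus-like cells made up 11.1% of gof and 12.4% of control tdTomato-positive cells. Among these 114 gof and 137 control cells Sema6d was lower in gof, past the limit. The part of choroid plexus-like cells in the Sema6d difference was not tested. Within hem-like cells the order was turned round, with 99.3 CPM in gof against 64.8 CPM in control. The log2 ratio of Sema6d in tdTomato-positive cells was -0.63, as it was without the non-neural classes, but it was -0.32, which is not past the limit, when the 23 gof and 49 control cells of mixed gates were left out as well. Sema6c was between 5.15 and 11.9 CPM, Sema6b did not exceed 2.75 CPM in any library, and Sema7a, a lipid-anchored ligand of Plxnc1, was at 9.50 CPM in gof against 11.1 CPM in control at E14.5, and at 26.9 against 34.2 CPM in projection neuron-like cells.

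**Figure D3:**
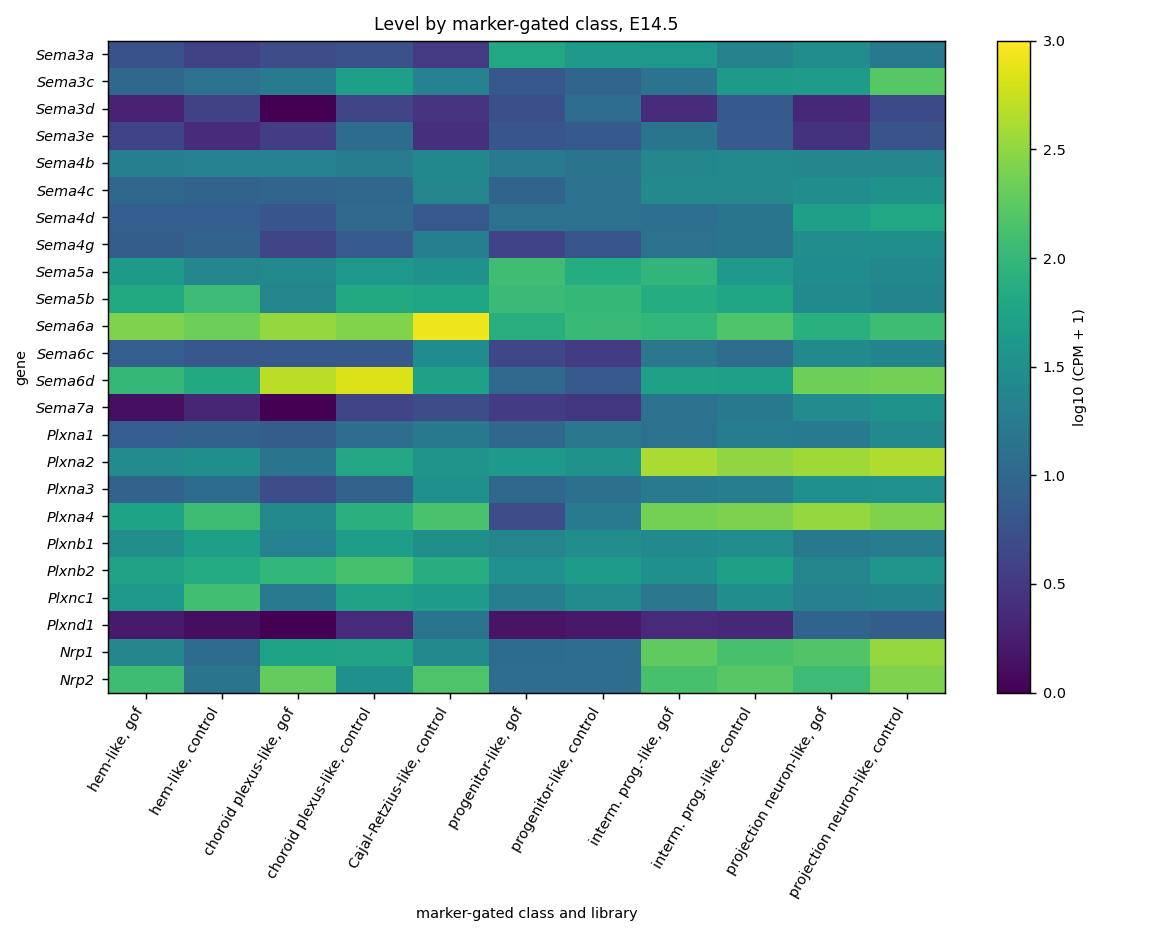
Level at E14.5 (log10 of CPM + 1, colour) of the members that reach 10 CPM in at least 1 class, by marker-gated class, with gof left of control; Cajal-Retzius-like cells are shown for control only. Sema6a stands out in control Cajal-Retzius-like cells (840 CPM), Sema6d in choroid plexus-like cells, and Plxna2 and Plxna4 in intermediate progenitor-like and projection neuron-like cells.

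Plxna2 and Plxna4 were highest in E14.5 intermediate progenitor-like and projection neuron-like cells. Plxna2 was at 369 CPM in gof against 434 CPM in control projection neuron-like cells and at 411 and 314 CPM in intermediate progenitor-like cells, while progenitor-like cells held 39.5 and 33.0 CPM. Plxna4 was at 337 CPM in gof against 264 CPM in control projection neuron-like cells. None of these 4 differences was past the limit. In choroid plexus-like cells Plxna2 was lower in gof, at 13.1 CPM against 63.6 CPM in control, as was Plxna4, at 25.1 against 80.3 CPM. Plxna4 was also lower in gof hem-like cells, at 54.3 CPM against 116 CPM in control, and in progenitor-like cells, at 4.10 against 16.2 CPM. Plxna1, a receptor of class 3 and class 6 semaphorins, was spread more evenly, between 6.57 and 16.4 CPM in the gof classes and between 7.45 and 25.7 CPM in the control classes. It was at 9.49 CPM in gof against 15.2 CPM in control tdTomato-positive cells. Plxna3 was at 15.3 CPM in gof against 18.1 CPM in control over all E14.5 cells.

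Plxnb1 and Plxnb2, receptors of class 4 semaphorins, were at 15.1 CPM or more in every E14.5 class read, while Plxnb3 was at most 0.409 CPM. Plxnb2 was highest in choroid plexus-like cells, at 96.5 CPM in gof against 133 CPM in control, and in tdTomato-positive cells it was lower in gof, at 44.7 CPM against 85.0 CPM in control. Plxnb1 was lower there too, at 21.9 CPM in gof against 33.6 CPM in control. Plxnc1, the receptor of Sema7a, was at 39.0 CPM in gof against 123 CPM in control hem-like cells, its highest class in both, with an interval of 0.257 to 0.391 for the ratio. It was also lower in gof in choroid plexus-like cells, at 16.8 CPM against 53.1 CPM in control, and in intermediate progenitor-like cells, at 14.3 against 28.6 CPM. In projection neuron-like cells it was at 19.2 CPM in gof against 21.3 CPM in control.

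Plxnd1, the receptor of Sema3e and a regulator of vessel growth, belonged to endothelial-like cells at E11.5, where the 115 gof cells held 275 CPM. No class outside the endothelial-like and microglia-like cells exceeded 5.86 CPM at E11.5. The control library had 43 endothelial-like cells, under the 50 set for reading a class. Over all kept E11.5 cells Plxnd1 was at 11.3 CPM in gof against 4.13 CPM in control, a log2 ratio of 1.26. The 8 endothelial markers, none at 0, summed to 93.3 CPM in gof against 40.5 CPM in control, and without the non-neural classes Plxnd1 was at 2.62 CPM in gof against 1.03 CPM in control, too low to be read against the limit. With mixed cells left out as well, it was at 0.85 and 0.422 CPM.

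The neuropilins differed in opposite directions in different cells at E14.5. In tdTomato-positive cells Nrp2 was higher in gof, at 182 CPM against 111 CPM in control, and Nrp1 was lower, at 49.9 CPM against 85.6 CPM. In cells with no tdTomato UMI, Nrp2 was at 65.6 CPM in gof against 102 CPM in control, and Nrp1 at 109 and 105 CPM. By class, Nrp2 was at 117 CPM in gof against 13.2 CPM in control hem-like cells, a log2 ratio of 3.04 with an interval of 6.49 to 12.2 for the ratio, and at 193 and 31.2 CPM in choroid plexus-like cells, a log2 ratio of 2.59. In projection neuron-like cells both neuropilins were lower in gof: Nrp2 at 114 CPM against 261 CPM in control, and Nrp1 at 151 CPM against 331 CPM. Intermediate progenitor-like cells held 186 CPM of Nrp1 in gof and 131 CPM in control, not past the limit. Progenitor-like cells held 10.9 CPM of Nrp2 in gof and 10.7 CPM in control. Among tdTomato-positive cells alone, hem-like Nrp2 was at 122 CPM in 137 gof cells and 12.9 CPM in 215 control cells, and projection neuron-like Nrp1 at 98.1 CPM in 108 gof cells and 408 CPM in 112 control cells. The result in tdTomato-positive cells as a whole depended on the reporter threshold: with at least 1 tdTomato UMI the log2 ratio of Nrp2 was 0.24, and with at least 5 it was 1.58, while that of Nrp1 was -0.06 with at least 5.

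The windows around the annotated starts of 3 genes are shown because Nrp2, Nrp1 and Sema3c, a ligand and its 2 neuropilin receptors, all differed past the limit in E14.5 tdTomato-positive cells; 9 other members did too. They run from 250 bases before to 50 after the start, in RefSeq on GRCm38.p6, and read 5' to 3' on the gene's strand. Capitals mark a match to CTTTGAT, a core of the motif bound by Tcf and Lef, the partners of beta-catenin in transcription; CTTTGTT was searched as well, on both strands. Nrp2 lies at chr1:62703067-62703366, Nrp1 at chr8:128358823-128359122 and Sema3c at chr5:17574566-17574865, all on the plus strand.
Nrp2: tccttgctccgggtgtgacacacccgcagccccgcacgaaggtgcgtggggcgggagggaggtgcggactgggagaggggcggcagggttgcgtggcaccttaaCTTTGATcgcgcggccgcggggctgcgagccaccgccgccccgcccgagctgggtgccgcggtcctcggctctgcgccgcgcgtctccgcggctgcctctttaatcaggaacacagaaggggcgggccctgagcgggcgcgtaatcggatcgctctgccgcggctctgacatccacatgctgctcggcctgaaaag
Nrp1: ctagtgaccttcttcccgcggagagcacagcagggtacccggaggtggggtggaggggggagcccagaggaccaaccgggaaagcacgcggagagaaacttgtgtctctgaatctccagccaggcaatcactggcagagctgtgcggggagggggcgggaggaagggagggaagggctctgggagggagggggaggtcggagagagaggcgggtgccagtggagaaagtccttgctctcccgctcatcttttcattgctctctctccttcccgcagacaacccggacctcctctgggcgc
Sema3c: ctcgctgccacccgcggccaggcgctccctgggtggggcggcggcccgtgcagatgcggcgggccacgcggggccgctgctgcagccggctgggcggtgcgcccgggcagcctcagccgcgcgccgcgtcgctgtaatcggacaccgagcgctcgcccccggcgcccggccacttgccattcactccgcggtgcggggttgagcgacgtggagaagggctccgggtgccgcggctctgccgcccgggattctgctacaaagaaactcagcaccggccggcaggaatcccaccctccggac
The Nrp2 match starts at -146 from the start site, and the Nrp1 and Sema3c windows held neither motif. The table held 37 windows of 26 members and none of Plxna1, Plxna4, Sema3b, Sema3f or Sema6a. Of the 37, 3 held a match (8.11%), those of Nrp2, Plxnb1 and 1 of the windows of Sema6d, against 3066 of all 32851 promoter windows of this length (9.33%). A match is a description of the letters only.

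**Figure D4:**
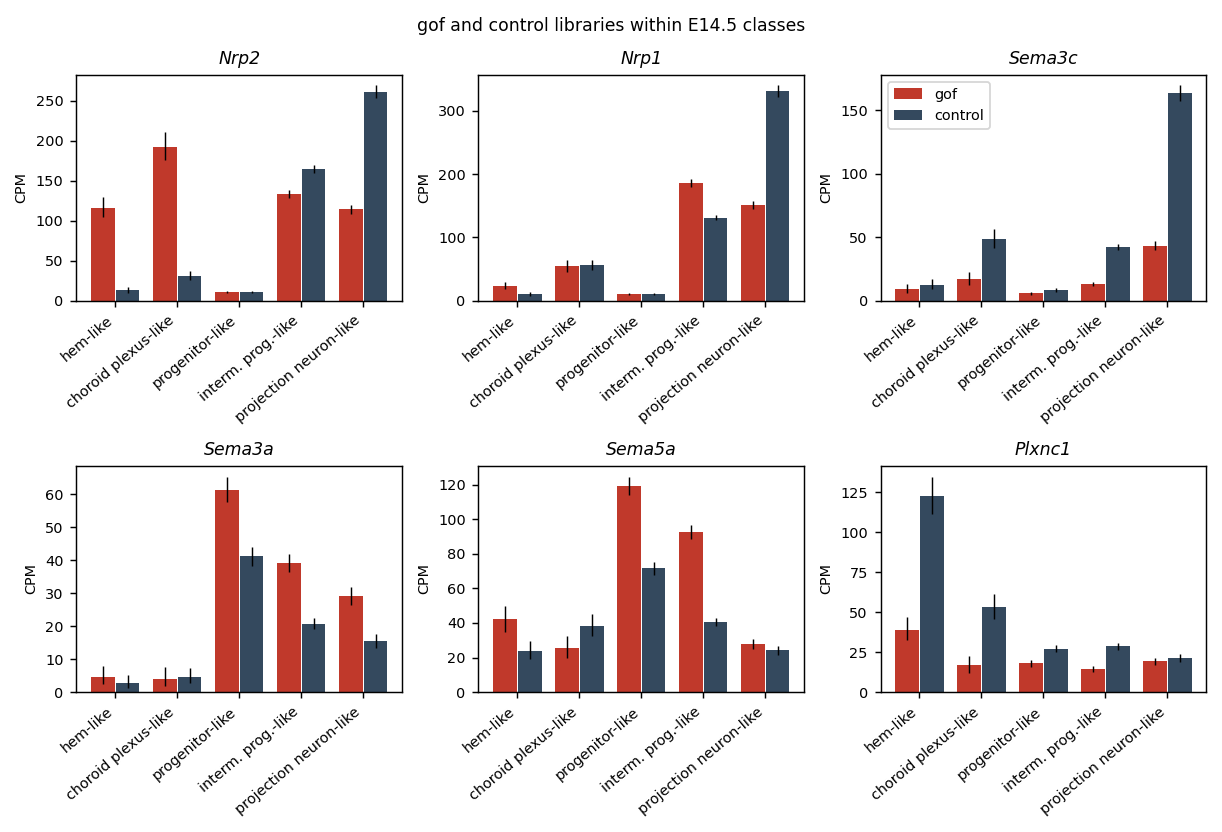
Level in CPM of 6 members in 5 E14.5 classes, gof (red) left of control (dark blue), with 95% counting intervals. Nrp2 is higher in gof hem-like and choroid plexus-like cells and lower in gof projection neuron-like cells, and Sema3c is lower in gof choroid plexus-like, intermediate progenitor-like and projection neuron-like cells.

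The 10 Wnt feedback markers include inhibitors of canonical Wnt signalling such as Notum, Axin2 and Nkd1, and the transcription factors Sp5, Lef1 and Tcf7. Gof cells with at least 7 of these markers, Notum among them, are called Wnt feedback-high. Such cells numbered 527 at E14.5, of which 505 were tdTomato-positive. They made up 73.1% of gof choroid plexus-like cells and 53.4% of gof hem-like cells, so the values of those classes in gof are largely values of such cells. Set against the other 4731 gof cells, 15 of 21 members were past the limit, 5 higher and 10 lower, where 30.5% of all genes tested were past it. Nrp2 was at 243 CPM in the Wnt feedback-high cells and 73.7 CPM in the other gof cells, Sema6a at 304 and 91.5 CPM, and Sema6d at 210 and 75.3 CPM. Plxna2 was at 33.9 CPM in the Wnt feedback-high cells and 222 CPM in the others, Sema3a at 6.78 and 59.5 CPM, and Sema5b at 20.9 and 82.5 CPM. The 2 sets of cells come from 1 library and differ in class, so they are not replicates. At E11.5, 140 such cells were found, and 7 of 15 members were past the limit, against 19.5% of all genes.

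Within each library, tdTomato-positive cells differed from cells with no tdTomato UMI. At E14.5, 12 of 21 members were past the limit in gof, 4 higher and 8 lower, against 18.2% of all genes, and 7 of 21 in control, 5 higher and 2 lower, against 18.9%. Sema6d was at 186 CPM in tdTomato-positive and 62.6 CPM in tdTomato-0 gof cells, and at 289 and 57.3 CPM in control. Sema3a was lower in tdTomato-positive cells of both genotypes, at 21.4 CPM against 60.6 CPM in gof and 7.65 against 32.3 CPM in control. At E11.5, 7 of 14 members were past the limit in gof, against 13.9% of all genes, and 7 of 11 in control, against 8.73%. Sema3c and Sema6d were higher in tdTomato-positive cells of both E11.5 libraries, and Sema3a, Nrp2 and Plxna4 were lower. These last 3 are the highest members of E11.5 mesenchymal-like cells, and the mesenchymal or meningeal markers, none at 0, summed to 180 CPM in tdTomato-positive and 975 CPM in tdTomato-0 gof cells and to 125 and 433 CPM in control. Without the non-neural classes, 0 members in gof and 1 in control were lower in tdTomato-positive cells, and 4 and 3 were higher. Sema3c was at 20.4 CPM in tdTomato-positive and 9.44 CPM in tdTomato-0 gof cells, and at 26.6 and 11.4 CPM in control.

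At E11.5 the class levels set mesenchymal-like and endothelial-like cells apart from neural cells. Nrp2 was at 131 CPM in gof against 178 CPM in control mesenchymal-like cells, and Plxna4 at 51.8 and 75.6 CPM. Endothelial-like gof cells held 183 CPM of Sema6a, 138 CPM of Nrp1 and 86.0 CPM of Sema6d. Sema6d was otherwise highest in choroid plexus-like cells, at 52.2 CPM in gof against 42.5 CPM in control, and Plxnb2 was at 55.5 and 55.2 CPM there. In erythroid-like cells, which should lack these genes, no member exceeded 3.47 CPM in gof or 2.26 CPM in control, at median depths of 11440 and 13040 UMIs. Globin genes led these cells and their UMIs count in those depths. The values are therefore no measure of ambient RNA in other classes. E11.5 other neuron-like cells had 9 of 14 members past the limit, 8 higher and 1 lower in gof, against 27.2% of all genes; among the top 10 genes of that gof class, 2 were Cajal-Retzius markers and 2 were its own. There Nrp2 was at 32.3 CPM in gof against 12.2 CPM in control, and Sema6c at 26.5 and 10.4 CPM. Cajal-Retzius-like cells of E11.5 had 2 of 15 past it, against 19.9% of all genes, choroid plexus-like cells 5 of 11, against 19%, and diencephalic-like cells 3 of 7, against 13.5%. Intermediate progenitor-like cells of E11.5 had 4 of 15, against 25.3%, mesenchymal-like cells 3 of 13, against 7.98%, and tdTomato-positive hem-like cells 3 of 10, against 20%. In E11.5 hem-like and progenitor-like cells, 0 members of 8 and of 7 were past the limit, against 8.89% and 8.59% of all genes. E14.5 hem-like cells had 8 of 14 past it, against 26.7%, and choroid plexus-like cells 9 of 15, against 36.6%. Progenitor-like cells had 4 of 17, against 12.9%, intermediate progenitor-like cells 7 of 22, against 14.2%, and projection neuron-like cells 6 of 21, against 9.92%. Within E14.5 tdTomato-positive cells, hem-like cells had 9 of 14, against 28.6%, choroid plexus-like cells 8 of 13, against 37.4%, intermediate progenitor-like cells 10 of 23, against 21.9%, and projection neuron-like cells 11 of 24, against 25.4%.

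**Figure D5:**
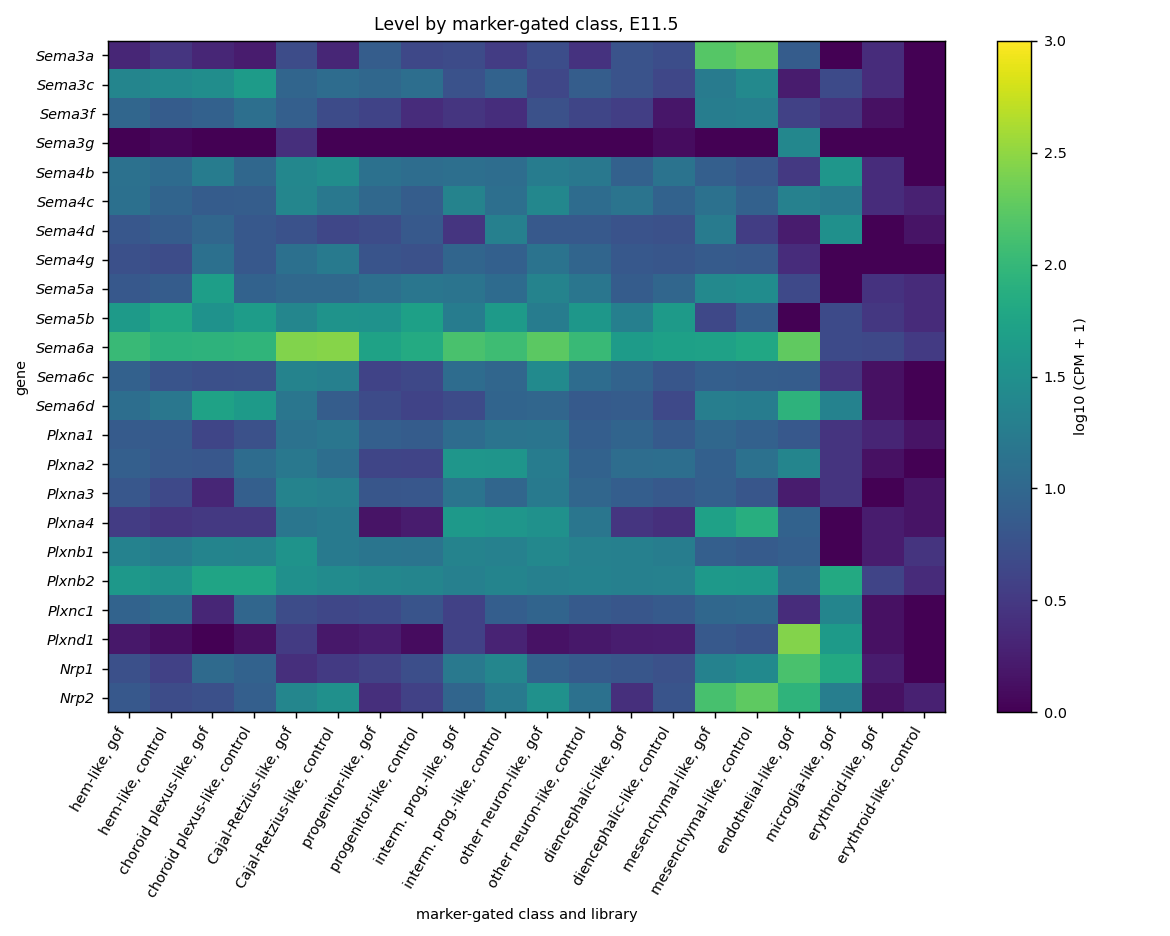
Level at E11.5 (log10 of CPM + 1, colour) of the members that reach 10 CPM in at least 1 class, by marker-gated class, with gof left of control; endothelial-like and microglia-like cells are shown for gof only. Sema3a and Nrp2 stand out in mesenchymal-like cells, Plxnd1 in endothelial-like cells and Sema6a in Cajal-Retzius-like cells, and erythroid-like cells are dark for every member.

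A list of 52 genes for co-receptors, other neuropilin ligands and signalling partners was read beside the family. In E14.5 tdTomato-positive cells, 7 of 44 tested were higher and 6 lower in gof, where 23.6% of all genes tested were past the limit in either direction. Nrcam, an adhesion molecule that forms complexes with neuropilins, was at 97.7 CPM in gof against 33.0 CPM in control. Dpysl4, of the CRMP family of semaphorin effectors, was at 138 and 70.2 CPM, and Rras, a small GTPase inactivated by plexins, at 11.8 and 5.93 CPM. Lower were Fer, a tyrosine kinase, at 47.0 CPM in gof against 106 CPM in control, Pak1, a kinase downstream of Rac, at 45.3 and 93.9 CPM, and Cdk5r1, the activator of Cdk5, at 72.4 and 137 CPM. In E11.5 tdTomato-positive cells, 7 of 37 were higher and 1 lower, where 11.6% of all genes were past the limit. Limk2, which phosphorylates cofilin, was at 28.0 CPM in gof against 10.6 CPM in control, and the VEGF receptors Kdr and Flt1 at 26.0 against 11.7 CPM and 14.8 against 7.23 CPM. The 8 endothelial markers, none at 0, summed to 81.4 CPM in gof against 52.4 CPM in control in the same cells. Kdr and Flt1 are themselves among these markers, so the sum is not a separate reading of endothelial RNA. The part of endothelial cells was not tested. Vegfc, a neuropilin ligand, was lower, at 8.40 CPM in gof against 17.3 CPM in control. Fer was at 22.7 and 33.2 CPM and Gipc1 at 53.7 and 75.9 CPM, neither past the limit.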

How the data were processed

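Per the labels, 10x Chromium 3' chemistry was used. For every library the authors deposited unnormalised UMI counts, genes by barcodes; the file headers name Cell Ranger 7.1.0, and the submitters' processing notes name mm10. The annotation they used was not given in these sources. A barcode was kept if it had 1000 genes or more and no more than 10% mitochondrial UMIs. Scrublet's own threshold called 2 doublets in each E11.5 library, so the highest scores were removed in every library at 0.8% per 1000 barcodes. Ambient RNA was not removed. Cells were gated on markers, and a class was read with at least 50 cells; cells passing a non-neural gate and another gate other than the progenitor gate were called mixed and put in no class. A cell passing several neural gates took the first in a fixed order. The order was choroid plexus, Cajal-Retzius, GABAergic, intermediate progenitor, projection neuron, diencephalic, hem, progenitor and other neuron. Only the progenitor gate set a limit on neuronal markers. Gate thresholds were set after the files had been seen, as was the omission of the E14.5 other neuron-like class, led by mitotic genes in control. The E14.5 progenitor-like and projection neuron-like classes were kept, though 0 of their own markers were among their top 10 genes in either library. Counts were summed and scaled to CPM with Python 3.11.15, scanpy 1.11.5, numpy 2.4.6, scipy 1.17.1 and pandas 2.3.3. Log2 ratios had 1 CPM added, and ratio intervals had nothing added. The comparison of tdTomato-0 cells was added after the tdTomato-positive values were seen. Described are members of at least 10 CPM in a library or class; outside the family, the 3 furthest up and down of the pathway list. The members and lists were chosen with earlier results of these data known. The script was tested on simulated data.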

Additional observations from a re-analysis of the deposited data

Results flagged for a closer look

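Some members were past the limit in opposite directions in different cells or ages, and none of these differences was itself tested. At E14.5, the log2 ratio of gof over control for Nrp2 was 3.04 in hem-like, 2.59 in choroid plexus-like and 0.71 in tdTomato-positive cells, and -0.62 in tdTomato-0 and -1.19 in projection neuron-like cells. Nrp1 at E14.5 was at 1.07 in hem-like cells, -0.77 in tdTomato-positive cells and -1.13 in projection neuron-like cells. Across ages, Nrp1 in tdTomato-positive cells had a log2 ratio of -0.77 at E14.5 and 0.77 at E11.5; the E11.5 value rests on 38 gof and 54 control UMIs and was 0.06 under a stricter cell filter. Sema6d at E14.5 was at 0.61 in hem-like and -0.63 in tdTomato-positive cells, and Sema3e at 1.0 in intermediate progenitor-like and -1.73 in choroid plexus-like cells.

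At E11.5, Nrp2 was at 1.34 in other neuron-like and -0.85 in intermediate progenitor-like cells. Plxna2 was at 1.06 in other neuron-like cells, -0.84 in choroid plexus-like cells and -0.66 in mesenchymal-like cells. Sema4b was at 0.86 in choroid plexus-like and -0.69 in diencephalic-like cells. The counting intervals of the ratio included 1 for Nrp2 in intermediate progenitor-like cells, for Plxna2 in choroid plexus-like cells and for both Sema4b values. Sema4d was at 2.34 in mesenchymal-like and -2.80 in intermediate progenitor-like cells. For the first value 1 cell gave a minority of the gof UMIs, and for the second 1 cell gave the majority of the control UMIs.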

How the results depend on the processing

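No result reversed under the alternatives run. Of 382 values for single members, 320 moved little and 62 moved by more than their counting interval; of 147 counts, 113 stayed within 1.5 times. Counts of members past the limit moved as follows. With a 50 CPM minimum they were 0 (E11.5 all cells), 3 (E14.5 all), 1 (E11.5 tdTomato-positive), 0 (tdTomato-positive over tdTomato-0, E11.5 control), 1 (the same, E11.5 gof), 9 and 8 (E14.5 over E11.5, gof and control) and 0 (E11.5 tdTomato-0). With a 2-fold limit they were 1 (E11.5 all), 1 (E14.5 all), 0 (E11.5 tdTomato-positive), 2 (E14.5 tdTomato-positive), 4 (tdTomato-positive over tdTomato-0, E11.5 gof), 10 (E14.5 over E11.5, gof), and 1 and 1 (tdTomato-0 at E11.5 and E14.5). With median-of-ratios scaling they were 6 (E11.5 all), 6 (E11.5 tdTomato-0) and 11 (E14.5 over E11.5, gof); it moved the E11.5 log2 ratios over all cells by -0.14. Without non-neural classes they were 1, 1 and 1 (E11.5 all, tdTomato-positive, tdTomato-0) and 4 and 4 (tdTomato-positive over tdTomato-0, E11.5 control and gof). With cells of mixed gates left out as well, an alternative chosen after seeing the data, they were 1, 1, 1, 5 and 3 in the same order; 63 of the E11.5 control tdTomato-positive cells are mixed, and 4 belong to non-neural classes. With no minimum they were 9 (E11.5 tdTomato-positive) and 12 (tdTomato-positive over tdTomato-0, E14.5 control). A pseudocount of 0.1 gave 5 (E11.5 all), one of 5 gave 0 (E11.5 tdTomato-positive), and at least 1 or 5 tdTomato UMIs gave 5 and 7 there. The cause was not tested. No paired analysis was possible because each group is 1 library. Classes of few cells, such as the 68 choroid plexus-like cells of the E11.5 gof library, limit the depth.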
